A study of Mus musculus with 4 samples.

Results

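The genes described here are 29 genes of pericytes and smooth muscle cells, the mural cells that wrap blood vessels. They were chosen by name, from what is known of these cells but with earlier results of these data known, and all 29 were among the 43432 genes counted. They hold 18 contractile genes, 10 pericyte genes and Itga7, a laminin receptor subunit that stands in neither group. Expression was measured by mRNA sequencing of 4 tumours that grew under the skin of female C57BL/6 mice from 9464D-GD2, a mouse neuroblastoma line that displays the ganglioside GD2. Both groups received dinutuximab, an antibody against GD2, at 25 µg, 2 times per week for 5 treatments, so no tumour here was free of the antibody. In 2 mice it was given alone (the dinutuximab group). In the other 2 it was given with 20 µg of small extracellular vesicles, membrane particles shed by 9464D-GD2 cells themselves (the sEV group). Tumours carry the numbers 3 and 4 within each group, and no age is given. The tumours all come from a single cell line, and whole tissue was sequenced, so a level sums over tumour, vessel, stromal and immune cells.

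Smooth muscle cells surround arteries and veins and contract through actin and myosin filaments, which slide when myosin light chain kinase (Mylk) phosphorylates the myosin light chain (Myl9). Most genes of this apparatus are switched on by serum response factor (SRF), which binds a short DNA element called the CArG box, CC and GG flanking 6 bases of A or T, and is helped by the cofactors myocardin (Myocd) and the myocardin-related factors Mrtfa and Mrtfb. Pericytes sit on capillaries within the basement membrane. They are recruited by endothelial PDGF-B through the receptor Pdgfrb, they express Notch3, and they carry the potassium channel made of Kcnj8 and Abcc9. In tumours, pericyte coverage of vessels is often sparse and uneven. Some contractile genes, Acta2 and Tagln above all, are also made by activated fibroblasts, and pericytes in quiescent capillaries make little of them. The comparison of contractile with pericyte genes asks whether both sets differed between the groups in the same way.

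The 4 libraries held between 24452699 and 28187573 counts. A count of 3, taken as the limit that a count of 0 allows, corresponds to between 0.104 and 0.123 CPM in a library, and this covers counting error only. Levels are given in CPM, the count scaled to the size of its library after TMM scaling. SDs are over the 2 tumours of a group, and the log2 fold change is sEV over dinutuximab with its standard error (SE) from the model. Across genes sEV tumour 3 stood apart, at 35.2 on the first principal component (42.4% of variance) where the other 3 tumours lay between -16.3 and -5.96, and fold changes without it are given with the calls of the members. p-values are from the quasi-likelihood test of edgeR over 13823 genes, adjusted by the Benjamini-Hochberg method.

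Of the smooth muscle genes, Cnn1, Myocd, Pln, Myh11, Lmod1 and Synpo2 were at or near 0 in all 4 tumours. Cnn1 (calponin 1), Myocd and Pln (phospholamban, which regulates the calcium pump of muscle) were at 0 in every library. Myh11, the smooth muscle myosin heavy chain and a gene largely restricted to these cells, had between 7 and 25 counts in a library. Lmod1 (leiomodin 1, an actin nucleator of smooth muscle) had 8 and 3 counts with dinutuximab and 6 and 1 with sEVs. Synpo2 (an actin-bundling protein of muscle) had 9 and 6 counts with dinutuximab and 5 and 2 with sEVs. These 5 of the 18 contractile genes (Cnn1, Myocd, Pln, Lmod1 and Synpo2) were too low to be tested. All 10 pericyte genes were detected in all 4 tumours, with Rgs5, Pdgfrb, Kcnj8 and Abcc9 between 3.02 and 20.0 CPM. Higd1b and Heyl were low too, with 8 to 15 and 13 to 32 counts in a library. Acta2, Tagln and Myl9 were present in all 4 tumours, and they can also be expressed by pericytes and activated fibroblasts.

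No member passed the test, and the members' fold changes lay mostly below 0. Of the 24 tested, 21 had a negative fold change, against 49.7% of all genes tested. The median log2 fold change was -0.56, against 0.0015 over all genes. None had an adjusted p under 0.05, as for 0% of all genes. At an unadjusted p under 0.05, 9 of the 24 were lower and 0 higher, where the shares over all genes were 3.10% lower and 2.47% higher. The sEV tumours lay below both dinutuximab tumours for 12 of the 24 (16.5% of all genes) and above both for 1, Cald1 (18.1% of all genes). sEV tumour 4 was the lowest of the 4 libraries for 19 of the 24 (18.5% of all genes). The filter on low counts looks at the counts only, but a gene high in 1 group passes it more easily, so these counts describe the 24 and not all 29. In whole tissue, fewer cells of a type and less RNA per cell cannot be told apart.

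**Figure D1:**
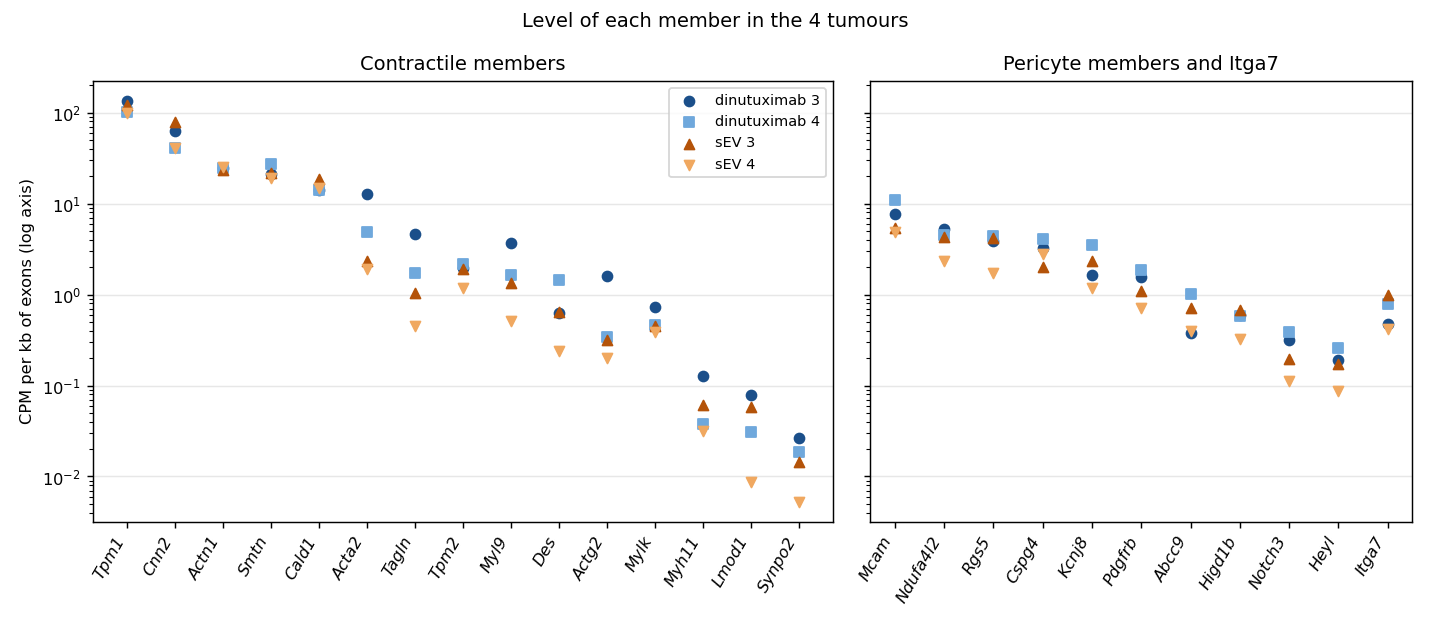
Level of each detected member in CPM per kilobase of exons (log axis), 1 point per tumour, with circles and squares for dinutuximab 3 and 4 and triangles for the sEV tumours. The mean over the tumours runs from 114 for Tpm1 to 0.0164 for Synpo2, and for Acta2, Tagln, Myl9 and Actg2 dinutuximab tumour 3 is the highest point.

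Acta2, Tagln, Myl9 and Actg2 had the 4 lowest fold changes, each with its highest level in dinutuximab tumour 3. Of the actins, Acta2 (alpha smooth muscle actin, chr19:34241090-34255590 on the minus strand of GRCm38) was at 27.8 CPM in dinutuximab tumour 3 and 10.6 CPM in dinutuximab tumour 4, and at 5.12 and 4.19 CPM in sEV tumours 3 and 4. The groups did not overlap, but the dinutuximab tumours differed 2.62-fold between themselves and the sEV tumours 1.22-fold. The means were 19.2 ± 12.1 and 4.66 ± 0.654 CPM (SD, n = 2), and the log2 fold change was -2.04 ± 0.40 (SE, edgeR unadjusted p = 0.000827, adjusted p = 0.463). Without dinutuximab tumour 3 it was -1.19. Actg2, the gamma actin of visceral smooth muscle, was at 2.49 CPM (64 counts) in dinutuximab tumour 3 and at 0.532, 0.497 and 0.312 CPM (13, 13 and 9 counts) in dinutuximab 4, sEV 3 and sEV 4. Here a single tumour was high and the other 3 had 9 to 13 counts. Its log2 fold change was -1.91 ± 0.71 (SE, edgeR unadjusted p = 0.026, adjusted p = 0.811) and was -0.40 without dinutuximab tumour 3. Reads of Acta2 could be confused with those of other actins only over a small stretch: 0.326% of its 50-base exon windows occur in another gene, and none of those of Actg2.

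Tagln (transgelin, an actin-binding protein and an early mark of smooth muscle, chr9:45929619-45936058, minus strand) had the pattern of Acta2, with 9.12 and 3.44 CPM in dinutuximab tumours 3 and 4 and 2.06 and 0.901 CPM in sEV tumours 3 and 4. The groups did not overlap, and dinutuximab tumour 3 was again the highest. The log2 fold change was -2.09 ± 0.53 (SE, edgeR unadjusted p = 0.00378, adjusted p = 0.568), and -1.22 without that tumour. Of its exon bases 62.4% overlap Gm48529, a gene on the opposite strand that has no row in the count table. Pcsk7, also on the opposite strand, overlaps 5.43% of them and had 792 to 956 counts in a library. The counts of Tagln are therefore uncertain if strand was not used. Myl9, the regulatory light chain, was at 4.25, 1.93, 1.57 and 0.589 CPM in dinutuximab 3, dinutuximab 4, sEV 3 and sEV 4. Its log2 fold change was -1.53 ± 0.54 (SE, edgeR unadjusted p = 0.0202, adjusted p = 0.786), and -0.84 without dinutuximab tumour 3, -2.39 without sEV tumour 3 and -0.98 without sEV tumour 4. Myh11 followed no group order, with 0.974 and 0.287 CPM with dinutuximab and 0.458 and 0.243 CPM with sEVs.

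Des (desmin), the intermediate filament of muscle cells and pericytes, differed from these genes in which tumour was high. It was at 2.34 CPM in dinutuximab tumour 3, 5.49 CPM in dinutuximab tumour 4, 2.41 CPM in sEV tumour 3 and 0.901 CPM in sEV tumour 4, and the groups overlapped. Its log2 fold change was -1.25 ± 0.54 (SE, edgeR unadjusted p = 0.0466, adjusted p = 0.885). It was -0.51 without dinutuximab tumour 4, -2.12 without sEV tumour 3 and -0.70 without sEV tumour 4. Skeletal muscle also makes desmin. Of its 7 tested marker genes 4 were highest in dinutuximab tumour 3 (Ckm, Mylpf, Tnnt3 and Tnni2) and 3 in dinutuximab tumour 4 (Acta1, Myh1 and Actn3). Whether skeletal muscle contributed to the desmin counts was not tested.

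Sequence near the start of the contractile genes was read for the element that SRF binds, because SRF is the known activator of many of them. RefSeq promoters on GRCm38 (the assembly called mm10) were found for 20 of the 29 members, without Tagln, Actg2, Myh11, Myocd, Pdgfrb, Heyl, Higd1b, Ndufa4l2 and Itga7, which were not searched, and the 250 bases before each start were searched on both strands. The 14 contractile genes had 15 windows, of which 2 held an exact CArG box (Myl9 and Cnn2), and the 6 pericyte genes had 6 windows with 0, against 1.47% of all 32851 windows. With 1 G or C allowed among the middle 6 bases, Acta2 joined them, and the share of all windows was 8.59%. The sites are given with 10 bases on each side, 5′ to 3′ on the gene's strand, with the box in capitals. Starts are those of RefSeq. The Acta2 gene of GENCODE reaches further upstream, so that its 2 sites lie inside the gene as GENCODE gives it. For Acta2 the first lies 84 bases before the start at chr19:34255438-34255467 on the minus strand, and the second 34 bases before it at chr19:34255388-34255417. For Myl9 they lie 161 and 99 bases before the start on the plus strand, at chr2:156775293-156775322 and chr2:156775355-156775384, and for Cnn2 56 bases before it at chr10:79988534-79988563 on the plus strand.
Acta2, first site: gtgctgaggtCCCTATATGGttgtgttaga
Acta2, second site: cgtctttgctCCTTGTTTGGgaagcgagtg
Myl9, first site: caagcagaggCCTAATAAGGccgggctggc
Myl9, second site: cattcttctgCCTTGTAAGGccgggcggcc
Cnn2: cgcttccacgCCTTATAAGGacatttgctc
The boxes of Acta2 and the second of Myl9 hold the 1 G or C, and the first of Myl9 and that of Cnn2 are exact. Acta2 and Myl9 were lower in both sEV tumours and Cnn2 was not. Whether a box near the start goes with a difference between the groups was not tested. The letters CATTCC, bound by TEAD factors, occurred in 6 of the 15 contractile and 1 of the 6 pericyte windows (12.6% of all windows). TGGGAA, the core letters bound by the Notch partner RBPJ, occurred in 4 and 1 of them (21.6% of all windows), and 1 of these overlaps the second Acta2 box. A match is a description of the letters and no evidence of binding.

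The 7 contractile genes set apart here as widely expressed had fold changes from -0.51 for Mylk to 0.24 for Cald1. This set was formed after their values were seen, and breadth of expression was not measured. That these fold changes lie near 0 is therefore no result about widely expressed genes. Per exon length, the mean level over the 4 tumours was highest for Tpm1 at 114 CPM per kilobase. Next came Cnn2 at 56.1, Actn1 at 24.3, Smtn at 22.5 and Cald1 at 15.5, against 5.43 for Acta2 and 7.19 for Mcam, the most abundant pericyte gene. Tpm2 at 1.81 and Mylk at 0.504, of the same set, lay below Acta2. Tpm1 (tropomyosin 1, which lies along the actin filament) was at 870 and 660 CPM with dinutuximab and 790 and 636 CPM with sEVs, and its log2 fold change was -0.10 ± 0.17 (SE, edgeR adjusted p = 0.961). Cnn2 (calponin 2) was at 155 and 101 CPM with dinutuximab and 195 and 101 CPM with sEVs. Actn1 (an actin cross-linker) was at 135 and 137 CPM with dinutuximab and 128 and 139 CPM with sEVs, and varied 1.08-fold over all 4 tumours. Smtn (smoothelin) was at 92.2 and 121 CPM with dinutuximab and 95.9 and 84.6 CPM with sEVs, and had a log2 fold change of -0.24 ± 0.16 (SE, edgeR adjusted p = 0.909). Cald1 (caldesmon, which restrains actin and myosin) was at 170 and 172 CPM with dinutuximab and 224 and 181 CPM with sEVs, the 1 member whose sEV tumours both lay above both others, with a log2 fold change of 0.24 ± 0.14 (SE, edgeR adjusted p = 0.908) that was 0.07 without sEV tumour 3 and 0.39 without sEV tumour 4. Mylk was at 8.15 and 5.20 CPM with dinutuximab and 5.04 and 4.33 CPM with sEVs, and its fold change was -0.15 without dinutuximab tumour 3. Tpm2 was at 5.77 and 6.27 CPM against 5.62 and 3.43 CPM.

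Of the pericyte receptors, Pdgfrb was at 8.65 and 10.2 CPM with dinutuximab and 5.96 and 3.88 CPM with sEVs. The groups did not overlap, and the tumours differed 1.17-fold within the dinutuximab group and 1.54-fold within the sEV group. The means were 9.40 ± 1.06 and 4.92 ± 1.47 CPM (SD, n = 2), and the log2 fold change was -0.94 ± 0.27 (SE, edgeR unadjusted p = 0.00748, adjusted p = 0.676), a 1.91-fold difference. Notch3 was at 2.53 and 3.11 CPM with dinutuximab and 1.57 and 0.901 CPM with sEVs, with a log2 fold change of -1.20 ± 0.38 (SE, edgeR unadjusted p = 0.0122, adjusted p = 0.720). Heyl, a target of Notch3 in these cells, was low and in the same order of groups, at 0.974 and 1.31 CPM against 0.879 and 0.451 CPM (log2 fold change -0.78 ± 0.47 SE, edgeR adjusted p = 0.908). It was -1.34 without sEV tumour 3 and -0.38 without sEV tumour 4.

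Mcam (CD146, an adhesion molecule of pericytes and endothelium) was at 25.9 and 36.3 CPM with dinutuximab and 17.9 and 16.3 CPM with sEVs, without overlap. The means were 31.1 ± 7.38 and 17.1 ± 1.17 CPM (SD, n = 2). Mcam had the smallest p of the pericyte genes, with a log2 fold change of -0.86 ± 0.19 (SE, edgeR unadjusted p = 0.00179, adjusted p = 0.463). Cspg4 (the proteoglycan NG2) was at 38.9 and 48.9 CPM with dinutuximab and 23.8 and 33.7 CPM with sEVs, and its log2 fold change was -0.61 ± 0.20 (SE, edgeR unadjusted p = 0.0146, adjusted p = 0.738). Both genes are also made by cells other than pericytes, tumour cells of neural crest origin among them. Without dinutuximab tumour 3 the log2 fold change was -1.09 for Mcam, -0.77 for Cspg4, -1.05 for Pdgfrb and -1.34 for Notch3. These 4 were further below 0 without it, while that of Acta2, Tagln, Actg2 and Myl9 was nearer to 0. Without dinutuximab tumour 4, the tumour in which these 4 were highest, the order was reversed. Mcam was then at -0.60, Cspg4 at -0.44, Pdgfrb at -0.82 and Notch3 at -1.04, nearer to 0. Acta2 was at -2.575, Tagln at -2.63, Actg2 at -2.62 and Myl9 at -1.98, further below 0. With n = 2 in a group, a negative fold change moves toward 0 when the higher dinutuximab tumour is left out. These shifts therefore restate which tumour was highest and are no separate result.

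The genes of the channel subunits lie beside each other on chromosome 6 (GRCm38), Kcnj8 at chr6:142564837-142571614 and Abcc9 at chr6:142587862-142702315, both on the minus strand. In both, and in Rgs5 and Higd1b, the groups overlapped. Kcnj8, the pore subunit, was at 4.17 and 8.85 CPM with dinutuximab and 5.96 and 3.02 CPM with sEVs. Abcc9, its regulatory subunit, was at 3.20 and 8.48 CPM with dinutuximab and 5.96 and 3.36 CPM with sEVs, so both subunits were highest in dinutuximab tumour 4 and lowest in dinutuximab 3 or sEV 4. Rgs5, a regulator of G protein signalling that marks pericytes, was at 17.7, 20.0 and 19.2 CPM in dinutuximab 3, dinutuximab 4 and sEV 3, and at 7.83 CPM in sEV 4, which alone was low. Its log2 fold change was -0.48 ± 0.35 (SE, edgeR adjusted p = 0.909), -1.28 without sEV tumour 3 and 0.027 without sEV tumour 4. Ndufa4l2, a mitochondrial protein enriched in pericytes, was at 5.81 and 5.00 CPM with dinutuximab and 4.70 and 2.57 CPM with sEVs, without overlap (log2 fold change -0.58 ± 0.33 SE, edgeR adjusted p = 0.901). It was -1.08 without sEV tumour 3 and -0.20 without sEV tumour 4. Of the exon bases of Ndufa4l2 2.92% overlap Shmt2 on the opposite strand, which had 6122 to 7120 counts in a library. The counts of Ndufa4l2 are therefore also uncertain if strand was not used. Higd1b, another pericyte marker, lay between 0.277 and 0.573 CPM. Itga7 was at 3.86 and 6.43 CPM with dinutuximab and 7.95 and 3.36 CPM with sEVs, and its groups overlapped.

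**Figure D2:**
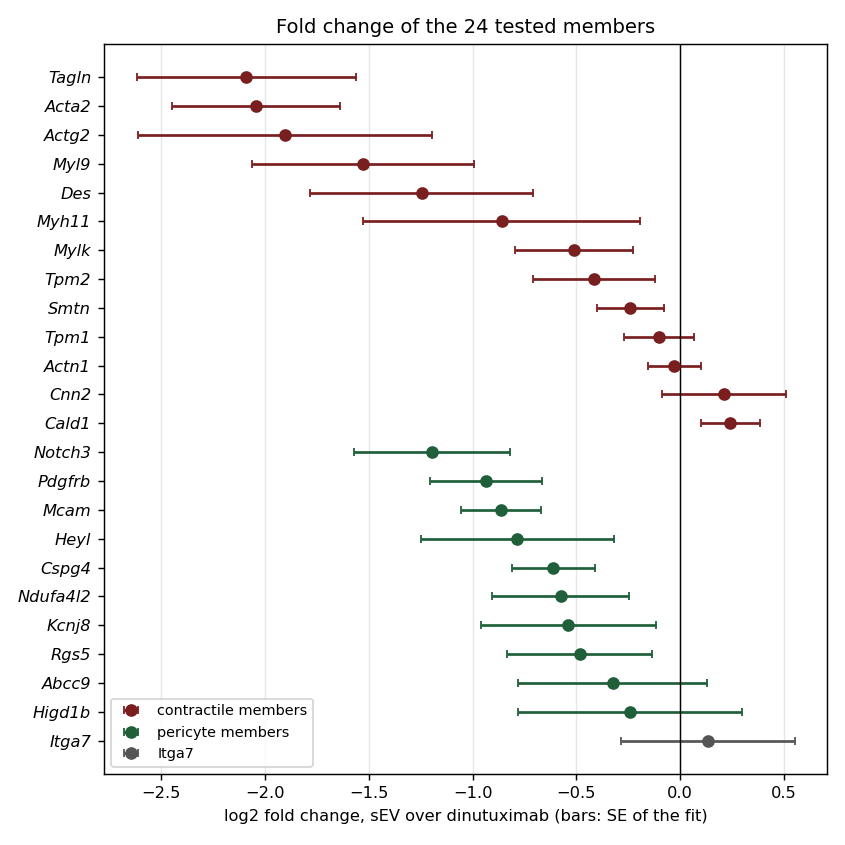
Log2 fold change of each tested member, sEV over dinutuximab (points), with its standard error from edgeR (bars), coloured by group of genes. Acta2, Tagln and Actg2 lie furthest below 0, near -2, and 3 members (Cnn2, Cald1 and Itga7) lie above it.

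Over the lists, the contractile and the pericyte medians were alike. The 13 tested contractile genes had a median log2 fold change of -0.51, with 11 negative, and the 10 pericyte genes one of -0.59, with 10 negative. The difference of the medians was 0.08, and over the fits with 1 tumour left out it ran from -0.12 to 0.52, so its sign depended on the tumour left out. Without sEV tumour 3 the contractile median was -0.82 and the pericyte median -1.10, and without sEV tumour 4 they were -0.41 and -0.29. The contractile genes were also split into 2 sets after their values were seen. The contrast between these sets is therefore a description and no test. The 11 genes of differentiated muscle (the muscle-type genes, of which Acta2, Tagln, Myl9 and Des are also made by other cells) had 6 tested members. All 6 were negative, with a median of -1.72. The 7 widely expressed genes had a median of -0.10 with 5 negative. The muscle-type median lay 1.12 below the pericyte median, and 0.09 below it without dinutuximab tumour 3. Summed over the 11, the level was 47.6 and 22.6 CPM with dinutuximab and 12.5 and 7.24 CPM with sEVs. Summed over the pericyte genes it was 108 and 143 CPM with dinutuximab and 86.5 and 72.3 CPM with sEVs, and over the widely expressed genes 1436 and 1201 CPM against 1443 and 1149 CPM.

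The tumours that were highest differed between the muscle-type and the pericyte genes. Dinutuximab tumour 3 was the highest for 5 of the 6 tested muscle-type genes and dinutuximab tumour 4 for 1, Des. Dinutuximab tumour 4 was the highest for 8 of the 10 pericyte genes and dinutuximab tumour 3 for 1. Of the 7 widely expressed contractile genes, dinutuximab 3, dinutuximab 4 and sEV 3 were each the highest for 2, and sEV 4 for 1. Over all 24 tested members the counts were 11 for dinutuximab tumour 4 and 8 for tumour 3, where all genes give 27.0% and 24.9%. sEV tumour 4 was the lowest for all 6 muscle-type genes and for 8 of the 10 pericyte genes. As log2 of a tumour's level over the gene's mean, the median of the muscle-type genes was 1.12 in dinutuximab 3, -0.17 in dinutuximab 4, -0.66 in sEV 3 and -1.62 in sEV 4. The pericyte median was 0.12, 0.52, 0.0083 and -0.84 in the same order.

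**Figure D3:**
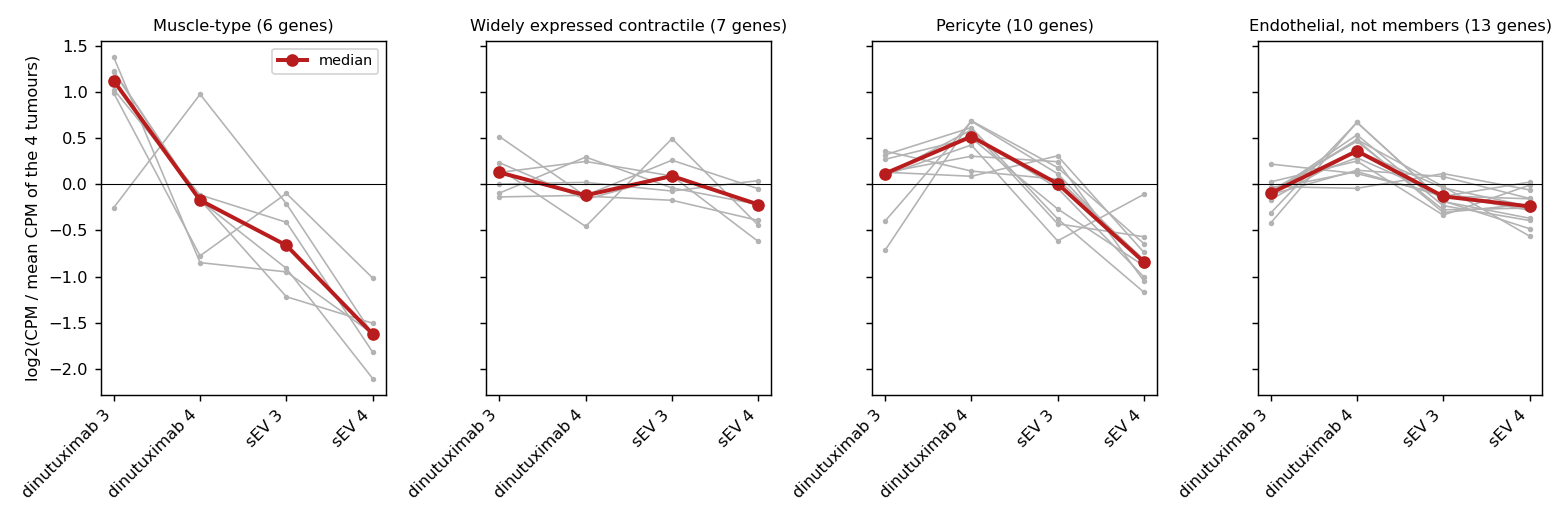
Log2 of the level in each tumour over the gene's mean of the 4 tumours, for muscle-type, widely expressed contractile, pericyte and endothelial genes. The muscle-type and widely expressed sets were formed after their values were seen. Grey lines join the values of a gene and the red line the medians. The muscle-type median is 1.12 in dinutuximab 3 and -1.62 in sEV 4, while the pericyte median is highest in dinutuximab 4, at 0.52.

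Ratios of a contractile to a pericyte gene, both per exon length, also set dinutuximab tumour 3 apart. For Acta2, Tagln and Myh11 over each of Rgs5, Pdgfrb, Kcnj8 and Abcc9 there are 12 ratios (Cnn1 was at 0), and dinutuximab tumour 3 was the highest in 12 of 12, by 1.46-fold to 7.03-fold over the next tumour. Among the other 3 tumours the ratios spanned 1.26-fold to 2.73-fold. The widest span was that of Myh11 to Pdgfrb, and Myh11 had only 7 to 25 counts in a library. The ratio of Acta2 to Pdgfrb was 8.0 in dinutuximab tumour 3, 2.61 in dinutuximab tumour 4, and 2.14 and 2.70 in the sEV tumours, so dinutuximab tumour 4 lay inside the sEV range. The ratio of Acta2 to Rgs5 was 3.25 and 1.10 with dinutuximab and 0.552 and 1.11 with sEVs. The groups did not overlap in 4 of the 12 ratios, and dinutuximab tumour 4 lay within the sEV range in 4. The 8 ratios of Myl9 and Actg2 to the same pericyte genes were also highest in dinutuximab tumour 3, and that of Des to them in 1 of 4. The ratios share their libraries and genes, so they are not independent, and n is 2 tumours in each group. Acta2, Tagln and Myh11 were themselves highest in dinutuximab tumour 3, so the ratios are no separate support.

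**Figure D4:**
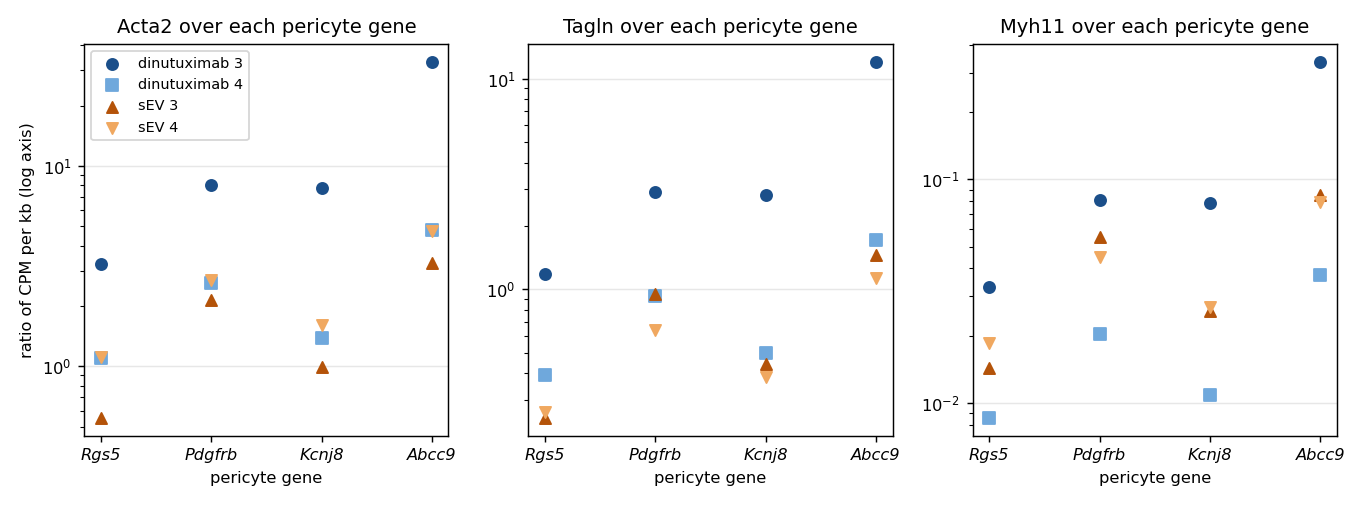
Ratios of Acta2, Tagln and Myh11 to 4 pericyte genes (CPM per kilobase, log axis) in each of the 4 tumours. Dinutuximab tumour 3 is the highest in each of the 12 ratios, and the other 3 tumours lie within 2.73-fold of each other. The widest span is that of Myh11 to Pdgfrb, and Myh11 had only 7 to 25 counts in a library.

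Calls of the members depended on the tool, the filter and the library left out. DESeq2 called Acta2, Tagln and Mcam lower (adjusted p = 5.09e-05, 0.0247 and 0.033) among 0.275% of all genes. With the tumour number as a block edgeR also called Acta2, Tagln and Mcam (0.333% of all genes), and with no filter on low counts it called 8 (0.704% of all genes). Without sEV tumour 3, edgeR called 7 members lower (Acta2, Tagln, Myl9, Des, Pdgfrb, Rgs5 and Mcam) among 0.579% of all genes, and without sEV tumour 4 it called Acta2, Tagln and Cspg4 among 0.919%. With either dinutuximab tumour left out it called none. Without sEV tumour 3 the log2 fold change was -2.20 for Acta2, -2.81 for Tagln, -2.28 for Actg2 and -1.38 for Myh11. Of the pericyte genes in the same fit, Pdgfrb was at -1.28, Notch3 at -1.65, Mcam at -0.94, Cspg4 at -0.39, Kcnj8 at -1.11, Abcc9 at -0.80 and Higd1b at -0.85. Of the others, Tpm1 was at -0.28, Tpm2 at -0.82, Cnn2 at -0.34, Mylk at -0.63, Smtn at -0.34, Actn1 at 0.019 and Itga7 at -0.62. Of the 24 fold changes, those of Cspg4 and Actn1 were higher and the others lower than with all 4 tumours. No setting called a member higher. The fits without an sEV tumour rest on gene variances pooled much more strongly, with a prior of 553 and 92.1 degrees of freedom against 6.48 with all 4 tumours.

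**Figure D5:**
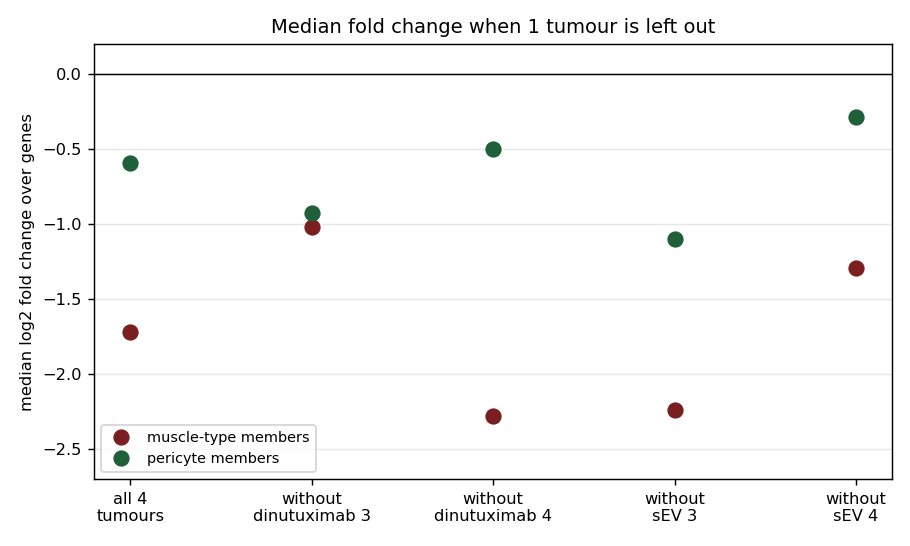
Median log2 fold change over the muscle-type genes and over the pericyte genes with all 4 tumours and with each left out in turn. The muscle-type set was formed after its values were seen. The muscle-type median lies between -2.28 and -1.02 and the pericyte median between -1.10 and -0.29, and the distance between them is smallest without dinutuximab tumour 3.

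Genes of the contractile pathway outside the members had list medians nearer to 0 than the members' median of -0.56. Of 11 SRF cofactors and regulators, 11 had a negative fold change and 3 had an unadjusted p under 0.05, with a median of -0.16. Fhl2, a coactivator that responds to SRF, was at 34.5 and 32.6 CPM with dinutuximab and 19.8 and 17.5 CPM with sEVs (log2 fold change -0.85 ± 0.15 SE, edgeR unadjusted p = 0.000422, adjusted p = 0.389). Csrp2 (a LIM protein of smooth muscle) had a log2 fold change of -0.63 ± 0.16 (SE, edgeR adjusted p = 0.568), and Srf itself -0.43 ± 0.14 (SE, edgeR unadjusted p = 0.015, adjusted p = 0.738). Srf was at 62.2 and 62.9 CPM with dinutuximab and 42.2 and 50.5 CPM with sEVs, without overlap. Mrtfa and Mrtfb had log2 fold changes of -0.11 and -0.10, with overlap. Of 10 tested other contractile genes 6 were negative (median -0.06), and Ppp1r12b, a regulatory subunit of myosin phosphatase, went the other way, at 22.3 and 23.5 CPM with dinutuximab and 38.1 and 34.8 CPM with sEVs (0.67 ± 0.15 SE, edgeR adjusted p = 0.463). Its groups did not overlap. The other 5 genes of that list were too low to be tested. Of these, 4 were lower in both sEV tumours, and Mustn1 overlapped. The share over all genes tested was 16.5%, and none was taken over untested genes. Having no fold change from the fit, they are listed as counts only. Whether counting error set the order of the tumours was not tested. Ppp1r14a had 17 and 8 counts with dinutuximab and 5 and 3 with sEVs, Pdlim3 25 and 9 against 3 and 4, Kcnmb1 6 and 5 against 1 and 1, and Itga8 4 and 2 against 1 and 0. The 15 non-muscle actomyosin genes had a median of -0.07, with 11 negative, and Myh10 had the lowest p (-0.51 ± 0.17 SE, edgeR adjusted p = 0.738).

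Genes of pathways that recruit mural cells (ligands, receptors and target genes) had mostly negative fold changes, and none passed the test. Of 13 tested, 9 were negative, against 49.7% of all genes tested, and the median was -0.52. At an unadjusted p under 0.05 in edgeR 3 of them were lower, where the share over all genes was 3.10%. Angpt2, which loosens the contact of mural cells with vessels, was at 27.4 and 19.5 CPM with dinutuximab and 13.0 and 12.4 CPM with sEVs, without overlap (-0.88 ± 0.20 SE, edgeR adjusted p = 0.463). S1pr3, a sphingosine phosphate receptor, had a log2 fold change of -1.44 ± 0.39 (SE, edgeR adjusted p = 0.614). Pdgfb, the ligand of Pdgfrb, was at 11.8 and 13.7 CPM with dinutuximab and 6.15 and 9.91 CPM with sEVs (-0.66 ± 0.26 SE, edgeR adjusted p = 0.841). Among 14 other mural markers 11 were tested, with 9 negative and a median of -0.21, and Foxf2 was at 0 in every library.

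Markers of other cell types were read beside the members. Of 13 endothelial genes 12 were negative, with a median of -0.36, and 11 were highest in dinutuximab tumour 4, the tumour in which 8 of the 10 pericyte genes were highest. Pecam1 had a log2 fold change of -0.36 ± 0.13 (SE, edgeR adjusted p = 0.804). Their summed level was 213 and 246 CPM with dinutuximab and 196 and 181 CPM with sEVs. Of 13 fibroblast genes 7 were negative and 6 positive, with a median of -0.19, and their sum was 788 and 814 CPM with dinutuximab and 1016 and 973 CPM with sEVs. Col15a1, a basement membrane collagen, had a log2 fold change of -1.17 ± 0.22 (SE, edgeR adjusted p = 0.404). It was lower in both sEV tumours, as were Col1a2 (-1.58), Postn (-1.03), Thy1 (-0.72) and Col1a1 (-0.44), and all 5 were highest in dinutuximab tumour 4. Dcn (0.54), Col3a1 (0.37), Dpt (1.11) and Pdgfra (0.28) were higher in both sEV tumours, and Dcn and Col3a1 are the most abundant of the list. These genes were named after their values were seen. Skeletal muscle genes had 7 of 7 tested negative, a median of -0.75 and summed levels of 23.1 and 21.9 CPM against 15.7 and 15.2 CPM. Cardiac genes were near 0, with 3 of 5 at 0 in every library and sums from 0.0693 to 1.23 CPM. Macrophage genes had 7 of 8 positive and a median of 0.16. The part of these cell types in the members' values was not tested.

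Readings of tissue handling and RNA quality differed between the groups in level. Of 14 immediate early and heat shock genes 13 were negative, with a median of -0.37. Genes to which ribosomal RNA reads map held 5.98% and 6.28% of all counts in the dinutuximab tumours, against 5.00% and 4.30% in the sEV tumours. Their part in the members' differences was not tested.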

How the data were processed

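Messenger RNA of 4 tumours, 2 in each group, was sequenced. Raw counts for 43432 Ensembl genes were deposited by the authors, and each of the 173728 values was equal in the series table and the tables per sample. STAR, SAMtools, HTSeq and the mm10 build are named, per the submitters' processing notes. Tool versions, annotation release and strandedness of the counting are not given in the sources used here. Gene names and coordinates came from GENCODE M21 on GRCm38, which named 42548 IDs.

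From the deposited counts, filterByExpr (default settings) retained 13823 genes and 24 of the 29 members. Libraries were scaled with TMM and tested in R 4.3.3 with the quasi-likelihood F test of edgeR 4.0.16, with the group as the only term and Benjamini-Hochberg adjustment at 0.05. The common biological coefficient of variation was 0.150. The fit was tested on simulated data in which the changed genes were not low in level, so that test does not cover members with few counts.

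All 29 members were named whatever their result, and from each other list the tested genes of lowest p, defining markers and a few genes chosen after their values were seen. Members and lists were chosen with earlier results of these data known. The split of the contractile genes into muscle-type (Acta2, Tagln, Myh11, Cnn1, Myl9, Actg2, Des, Lmod1, Synpo2, Myocd, Pln) and widely expressed ones was made after their values were seen. Alternatives were DESeq2 1.42.0, limma-voom (limma 3.58.1), 3 scalings, 2 filters, robust dispersions, a threshold of 0.1, the tumour number as a block, and leaving out each tumour. Promoter sequences came from RefSeq on GRCm38. Tumours within a group are described by the submitters as biological replicates.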

Additional observations from a re-analysis of the deposited data

How the results depend on the processing

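With all 4 tumours edgeR called 0 genes higher and 0 lower at an adjusted p under 0.05 (341 and 429 at an unadjusted p under 0.05), and limma-voom also called 0 and 0 (316 and 427). DESeq2 called 17 higher and 38 lower, edgeR with no filter on low counts 107 and 155, and edgeR with the replicate block 21 and 46. Leaving out 1 tumour gave between 0 and 142 genes higher and between 0 and 127 lower. The correlation of the deviations of the tumours that share a number was 0.0659 and the labels do not say what the number means, so the block is no evidence of pairing. No setting called a member higher. Leaving out 1 tumour moved the contractile median between -0.82 and -0.40, the pericyte median between -1.10 and -0.29, their difference between -0.12 and 0.52, the muscle-type median between -2.28 and -1.02, and its distance from the pericyte median between -1.78 and -0.092. The number of negative fold changes was 9 to 12 among the 13 contractile genes and 7 to 10 among the 10 pericyte genes. Over the same fits the log2 fold change crossed 0 for Myh11 (-1.47 to 0.27), Cnn2 (-0.34 to 0.61), Tpm1 (-0.29 to 0.11), Actn1 (-0.085 to 0.019), Rgs5 (-1.28 to 0.027), Kcnj8 (-1.11 to 0.10), Abcc9 (-0.87 to 0.54), Higd1b (-0.85 to 0.20) and Itga7 (-0.62 to 0.63). With library totals in place of TMM that of Actn1 was 0.0095. The cause of these changes was not tested. Low counts, at 25 or fewer in every library for Myh11 and 13 or fewer in 3 libraries for Actg2, limit the precision of those genes.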
